A study of Rattus norvegicus with 23 samples.

Results

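Kidney RNA levels of 9 genes, Ubd, Rcan1, Tgif1, Tmem252, Cys1, Sfpq, Pamr1, Bmp4 and Nkd2, were examined in rats of 2 Sabra lines after removal of a kidney. The genes were picked because their levels differed in the same direction between uninephrectomized and sham-operated rats in both lines. They are 9 of 14217 genes with a probe set of their own on the array. Each was measured by 1 probe set, and no further probe set carried only its symbol. SBH/y is the hypertension-prone and SBN/y the hypertension-resistant Sabra line, bred for their blood pressure response to salt. All rats were male, ate standard chow and were killed at 4 months of age, 3 months after the operation. The groups were SBH/y rats with 1 kidney after right uninephrectomy (n = 6), sham-operated SBH/y rats with 2 kidneys (n = 6), SBN/y rats with 1 kidney after right uninephrectomy (n = 6) and sham-operated SBN/y rats with 2 kidneys (n = 5). Each n counts samples, each on 1 array, and the labels do not say that every sample is a separate rat. No salt load is given in the labels, which also do not say which kidney region gave the RNA. Values are log2 levels on Affymetrix arrays, 1 array per sample, so a difference of 1 on that scale is a fold of 2, and the number of arrays limits the precision.

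The remaining kidney enlarges and filters more after its partner is removed. The 9 genes come from several systems that act in this tissue. BMP ligands and TGF-beta ligands bind paired receptor kinases, which phosphorylate SMAD proteins in the cytoplasm. The activated SMAD proteins move to the nucleus, where corepressors dampen their output. Wnt ligands act through Dishevelled and beta-catenin, calcineurin is a phosphatase that sends NFAT factors to the nucleus, and the primary cilium of the tubule cell holds proteins that are lost in cystic kidney disease.

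The genes were chosen by their uninephrectomy differences, the values of 1 kidney minus 2 kidneys in each line, so these are described here without a test. The 9 genes differed in the same direction in both lines, 6 higher and 3 lower with 1 kidney. Of the 9, 7 had an adjusted p under 0.05 in both lines and 2, Nkd2 and Cys1, had it in SBN/y rats only. In SBH/y rats Cys1 had an adjusted p of 0.0624 and Nkd2 of 0.228. The split moves with the settings. Cys1 passed in SBH/y rats with dim probe sets filtered out (0.0427) or 1 probe set per gene (0.0453), and missed in SBN/y rats with a GAPDH covariate (0.0681). With only the groups compared in the fit, Bmp4 missed in SBN/y rats (0.0566) and Tmem252 in SBH/y rats (0.0733). Over all 31042 probe sets tested, 5.04% passed that threshold in SBH/y rats and 0.168% in SBN/y rats, and 0.0966% passed it in both lines with the same direction. Of the 9 genes, Bmp4 lay nearest inside the threshold, with an adjusted p of 0.0296 in SBN/y rats by limma. Nearest outside lay Fga, which encodes a fibrinogen chain, with differences of 0.41 in SBH/y and 0.52 in SBN/y rats and a larger adjusted p of 0.0530. Herc3 followed with -0.24 in SBH/y and -0.42 in SBN/y rats and a larger adjusted p of 0.0608. A further 16 named genes passed the threshold in both lines in the same direction and are not among the 9: Akr1b1, Apoe, Cdkn1a, Clk2, Eps8l2, Gnpda1, Guca2b, Havcr1, Hmox1, Jun, Manf, Prox1, Slc2a2, Spp2, Srsf5 and Tsc22d1.

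The sequences around the start of 4 of the genes are shown as examples. Ubd, Bmp4 and Nkd2, like Tgif1, responded by different amounts in the 2 lines before adjustment of the p-values, and none did after it. Rcan1, like Pamr1, passed no test between the lines at the same number of kidneys, nor one of the difference in response. The sequences come from RefSeq on the GRCr8 assembly. They run from 250 bases before to 50 bases after each gene start, written 5' to 3' on the gene's strand. Ubd lies at chr20:1392636-1392935 on the minus strand, Rcan1 at chr11:45118187-45118486 on the minus strand, Bmp4 at chr15:22101884-22102183 on the minus strand and Nkd2 at chr1:31272282-31272581 on the plus strand. Capitals mark every match, on either strand, to 11 short motifs: TATAAA for the TATA box, CCAAT for the NF-Y box, GGGCGG for the GC box of Sp1, TGANTCA for AP-1, TGACGT for the core bound by CREB, GGAAA for the core bound by NFAT, CAGAC for the core bound by SMAD proteins, GGCGCC for BMP-activated SMAD proteins, CTTTGA for TCF, CACGTG for the E-box and TTCNNNGAA for the STAT element GAS. A run of capitals can hold overlapping matches, as in the CRE core of Rcan1, which matches on both strands.
Ubd: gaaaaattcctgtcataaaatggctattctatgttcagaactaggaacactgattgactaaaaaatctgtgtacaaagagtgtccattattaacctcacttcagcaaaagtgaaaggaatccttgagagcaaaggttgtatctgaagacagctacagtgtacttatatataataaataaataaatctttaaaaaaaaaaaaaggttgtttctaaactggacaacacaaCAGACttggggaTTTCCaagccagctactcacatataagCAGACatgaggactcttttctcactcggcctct
Rcan1: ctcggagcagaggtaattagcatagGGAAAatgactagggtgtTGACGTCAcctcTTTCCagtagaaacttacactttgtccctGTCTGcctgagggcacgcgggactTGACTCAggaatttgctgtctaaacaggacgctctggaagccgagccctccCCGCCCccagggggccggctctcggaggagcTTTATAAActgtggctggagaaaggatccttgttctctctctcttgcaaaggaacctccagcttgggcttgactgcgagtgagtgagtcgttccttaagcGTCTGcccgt
Bmp4: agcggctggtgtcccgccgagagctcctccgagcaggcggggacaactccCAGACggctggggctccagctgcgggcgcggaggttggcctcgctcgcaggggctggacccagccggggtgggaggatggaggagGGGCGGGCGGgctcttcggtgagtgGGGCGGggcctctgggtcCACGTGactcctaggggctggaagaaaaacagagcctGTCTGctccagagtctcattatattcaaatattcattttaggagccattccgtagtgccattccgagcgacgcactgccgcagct
Nkd2: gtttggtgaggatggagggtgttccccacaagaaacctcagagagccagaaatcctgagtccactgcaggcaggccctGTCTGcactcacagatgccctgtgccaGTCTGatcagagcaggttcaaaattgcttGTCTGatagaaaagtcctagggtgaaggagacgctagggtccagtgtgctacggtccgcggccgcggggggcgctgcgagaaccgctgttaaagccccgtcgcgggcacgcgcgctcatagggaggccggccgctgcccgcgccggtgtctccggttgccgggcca

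The promoters differ in composition. Ubd's has 35.0% G and C and 1 CpG, against 54.7% and 13 for Rcan1, 65.0% and 22 for Bmp4, and 62.7% and 22 for Nkd2. The median over 27457 rat promoters is 52.3% and 7 CpG. A promoter was found for 8 of the 9 genes; Tgif1 is named only. The SMAD core CAGAC matched in 6 of the 8, against 50% of all promoters, and in the 4 sequences above it stands in each. The NFAT core GGAAA matched in 4 of the 8 (Rcan1, Ubd, Sfpq and Pamr1), against 62.5% of all promoters. The AP-1 site TGANTCA and the CRE core TGACGT each matched in 2 of the 8, Rcan1 and Pamr1, against 7.33% and 8.22% of all promoters. The GC box GGGCGG matched in 3 of the 8 (Bmp4, Rcan1 and Cys1), against 34.9%. The TATA box matched in Rcan1 alone of the 8 (14.3% of all promoters) and the E-box in Bmp4 alone (6.65%). The GAS element matched in none of the 8, against 8.68% of all. The remaining motifs matched in 1 of the 8 each, CCAAT in Sfpq (37.7% of all promoters), GGCGCC in Pamr1 (11.8%) and CTTTGA in Tmem252 (15.9%). A match describes the letters of this window and is not a site or a cause.

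Bmp4, Tgif1 and Nkd2 of the 9 genes act in or beside BMP, TGF-beta and Wnt signalling. Bmp4 encodes a secreted BMP ligand that shapes the ureteric bud in development. Its level ran between 6.78 and 7.03, with a median of 6.96, in SBH/y rats with 1 kidney, and between 7.33 and 7.61, with a median of 7.43, in sham-operated SBH/y rats. In SBN/y rats with 1 kidney it ran between 7.29 and 7.47, with a median of 7.36, and sham-operated SBN/y rats had 7.69, 7.67, 7.78, 7.52 and 7.64. All arrays with 1 kidney lay below all sham-operated arrays of their line. The difference between 1 and 2 kidneys was -0.51 ± 0.06 (SE) in SBH/y rats, a ratio of 0.704, and -0.30 ± 0.06 in SBN/y rats, a ratio of 0.813.

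Tgif1 encodes a homeobox corepressor that binds SMAD complexes and limits TGF-beta responses. Log2 levels were between 7.86 and 8.48, with a median of 8.10, in SBH/y rats with 1 kidney, and between 7.25 and 7.50, with a median of 7.38, in sham-operated SBH/y rats. SBN/y rats with 1 kidney lay between 7.40 and 7.67, with a median of 7.47, and sham-operated SBN/y rats had 7.11, 6.88, 7.01, 7.16 and 6.90. No array with 1 kidney overlapped the sham-operated arrays of its line. The difference was 0.76 ± 0.08 in SBH/y rats (1.69-fold) and 0.48 ± 0.08 in SBN/y rats (1.40-fold).

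Nkd2 encodes a protein that binds Dishevelled and dampens Wnt signalling. It was measured between 5.61 and 6.003, with a median of 5.70, in SBH/y rats with 1 kidney, and between 5.74 and 6.40, with a median of 5.97, in sham-operated SBH/y rats, so these groups overlapped. The SBN/y rats with 1 kidney had values between 5.50 and 6.32, with a median of 5.99, while sham-operated SBN/y rats had 6.87, 6.80, 6.91, 6.50 and 6.57, above every other array. The difference was -0.26 ± 0.11 in SBH/y rats and -0.75 ± 0.12 in SBN/y rats, ratios of 0.834 and 0.593.

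Rcan1 and Ubd are regulators of other proteins. Rcan1 encodes a small protein that binds and inhibits calcineurin, and its own transcription can be driven by NFAT. Its level lay between 8.54 and 8.93, with a median of 8.69, in SBH/y rats with 1 kidney, and between 7.93 and 8.34, with a median of 8.08, in sham-operated SBH/y rats. In SBN/y rats with 1 kidney it ran between 8.25 and 8.90, with a median of 8.62, and sham-operated SBN/y rats had 7.88, 7.80, 7.99, 7.90 and 8.16. The groups did not overlap in either line, and the ranges of the 2 lines overlapped with 1 kidney and with 2. The difference was 0.61 ± 0.10 in SBH/y rats and 0.69 ± 0.10 in SBN/y rats, folds of 1.53 and 1.61.

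Ubd encodes FAT10, a ubiquitin-like modifier that is attached to proteins and marks them for the proteasome, and that interferon-gamma and TNF induce. It had the largest difference of the 9 genes in both lines. Arrays gave values between 8.74 and 9.48, with a median of 9.08, in SBH/y rats with 1 kidney, and between 7.57 and 7.94, with a median of 7.72, in sham-operated SBH/y rats. SBN/y rats with 1 kidney lay between 7.83 and 8.29, with a median of 7.98, and sham-operated SBN/y rats had 7.19, 7.14, 7.13, 7.30 and 7.30. The arrays of SBH/y rats with 1 kidney stood above every other, and those of sham-operated SBN/y rats below every other. The difference was 1.35 ± 0.10 in SBH/y rats (2.55-fold) and 0.80 ± 0.10 in SBN/y rats (1.74-fold).

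Cys1, Sfpq, Pamr1 and Tmem252 have roles outside these pathways. Cys1 encodes cystin, a protein of the primary cilium whose loss causes cystic kidneys in the cpk mouse. Its level ran between 8.14 and 8.66, with a median of 8.43, in SBH/y rats with 1 kidney, and between 7.78 and 8.41, with a median of 8.10, in sham-operated SBH/y rats. The SBN/y rats with 1 kidney had values between 7.63 and 8.30, with a median of 7.80, and sham-operated SBN/y rats had 7.29, 7.32, 7.36, 7.08 and 7.30, below every other array. The SBH/y groups overlapped. The difference was 0.36 ± 0.11 in SBH/y rats and 0.59 ± 0.12 in SBN/y rats, folds of 1.28 and 1.51.

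Sfpq encodes a nuclear RNA-binding protein of paraspeckles that acts in splicing and transcription. Log2 levels were between 6.83 and 7.24, with a median of 7.06, in SBH/y rats with 1 kidney, and between 6.49 and 6.80, with a median of 6.73, in sham-operated SBH/y rats. In SBN/y rats with 1 kidney it ran between 6.58 and 7.01, with a median of 6.86, and sham-operated SBN/y rats had 6.50, 6.10, 6.18, 6.19 and 6.38. Neither line's groups overlapped. The difference was 0.37 ± 0.08 in SBH/y rats and 0.54 ± 0.09 in SBN/y rats, folds of 1.29 and 1.45.

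Pamr1 encodes a secreted protein with CUB and protease-like domains. It was measured between 6.86 and 7.26, with a median of 7.10, in SBH/y rats with 1 kidney, and between 7.26 and 7.70, with a median of 7.65, in sham-operated SBH/y rats. SBN/y rats with 1 kidney lay between 6.75 and 7.11, with a median of 6.96, and sham-operated SBN/y rats had 7.56, 7.34, 7.46, 7.29 and 7.40. The groups did not overlap, but in SBH/y rats the highest uninephrectomized array and the lowest sham-operated array, replicate 3, had nearly equal values. The difference was -0.51 ± 0.08 in SBH/y rats and -0.46 ± 0.08 in SBN/y rats, ratios of 0.704 and 0.727.

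Tmem252 encodes a membrane protein. Its level lay between 9.82 and 10.64, with a median of 10.01, in SBH/y rats with 1 kidney, and between 9.51 and 9.95, with a median of 9.63, in sham-operated SBH/y rats. The SBN/y rats with 1 kidney had values between 9.76 and 9.99, with a median of 9.83, and sham-operated SBN/y rats had 9.37, 9.39, 9.11, 9.11 and 9.40. The SBH/y groups overlapped and the SBN/y groups did not. The difference was 0.40 ± 0.10 in SBH/y rats and 0.57 ± 0.11 in SBN/y rats, folds of 1.32 and 1.48. Over the 9 genes, 6 had groups without overlap in SBH/y rats, where 2.84% of all probe sets did, and 9 in SBN/y rats, where 1.26% did. The genes were picked on these same differences, so these counts are a description and no test. Because RNA of kidney tissue and not of sorted cells was measured, fewer cells of a type and less RNA per cell cannot be told apart.

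**Figure D1:**
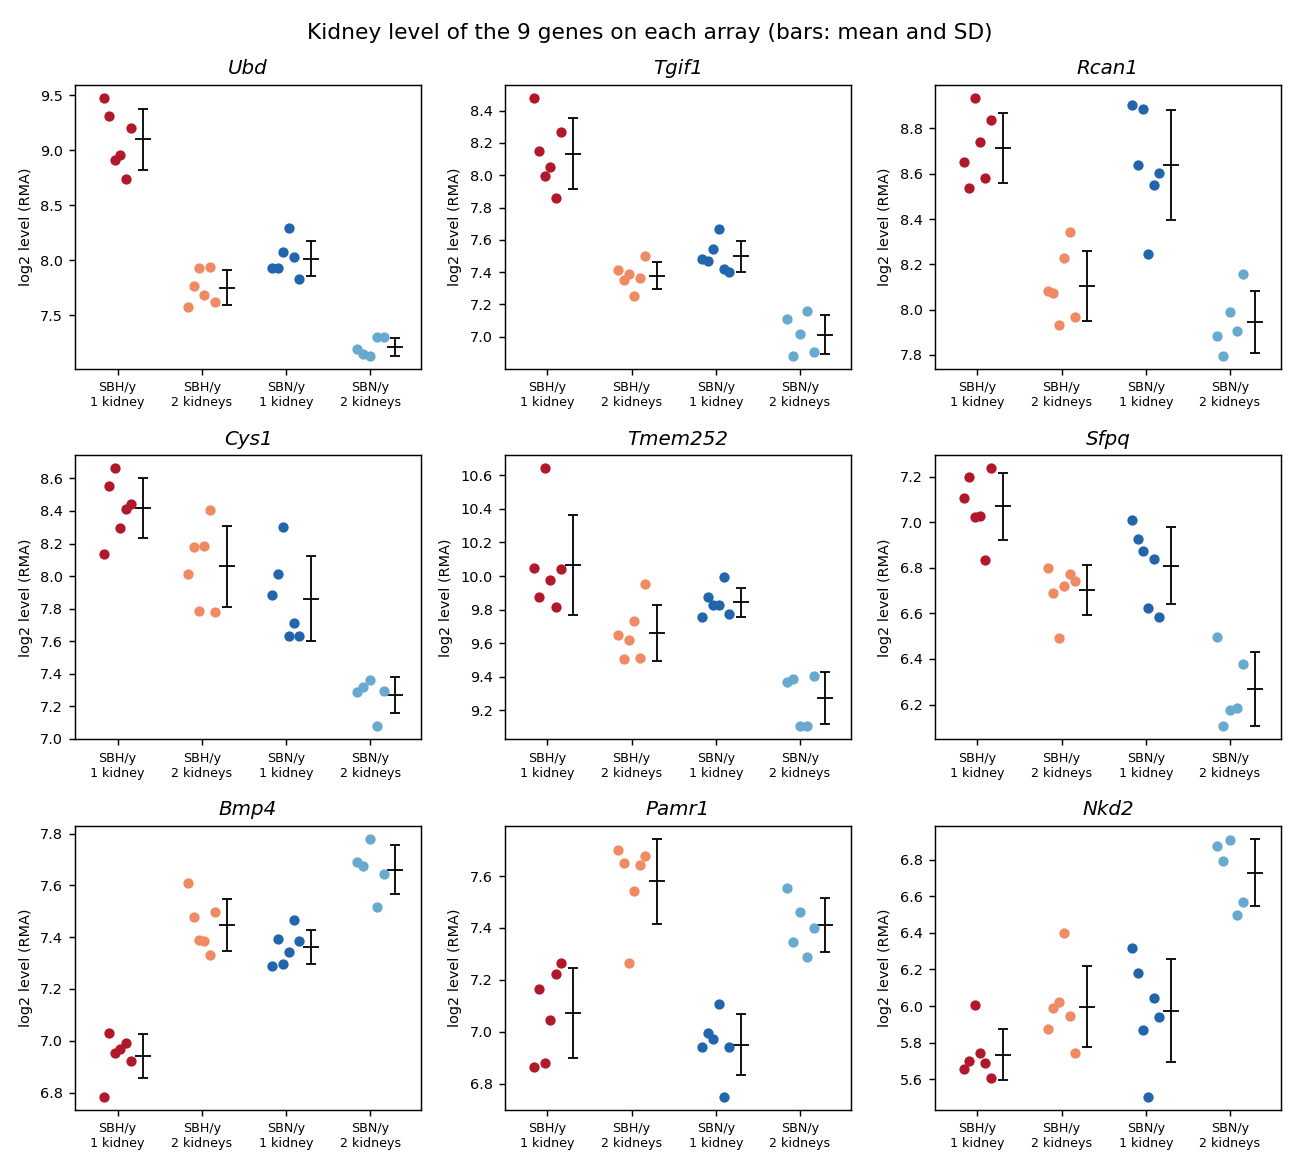
Log2 level (RMA) of each of the 9 genes on every array, by strain and kidney number, with 1 point per array, a horizontal line at the group mean and a bar of 1 SD to each side (n = 6, 6, 6 and 5 from left to right). The vertical axes differ between panels. Ubd is highest in SBH/y rats with 1 kidney (9.10 ± 0.28), and Nkd2 highest in sham-operated SBN/y rats (6.73 ± 0.18).

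The size of the response was compared between the lines by the interaction, the SBH/y difference minus the SBN/y difference. The choice of genes used both responses, from the same arrays, but not the difference between them. The interaction is made of those responses, so counts set beside all probe sets are not independent of the choice. None of the 9 genes passed adjusted p 0.05 in this limma test, where 0.254% of all probe sets did. At an unadjusted p under 0.05 there were 4 of 9, against 8.06% of all probe sets. The largest was Ubd, at 0.55 ± 0.14 (95% confidence interval 0.25 to 0.84, adjusted p = 0.122), a response larger in SBH/y rats. Under 2 alternatives this gene passed, with an adjusted p of 0.0341 with array weights and 0.0284 without replicate 5 of the SBH/y rats with 1 kidney. Nkd2 had 0.49 ± 0.16 (0.16 to 0.82, adjusted p = 0.289), where the decrease was smaller in SBH/y rats. Tgif1 had 0.27 ± 0.11 (0.04 to 0.51, adjusted p = 0.508) and Bmp4 had -0.21 ± 0.08 (-0.38 to -0.04, adjusted p = 0.466), each a larger response in SBH/y rats.

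For the other 5 genes the interval of the interaction reached across 0. It ran from -0.57 to 0.10 for Cys1, from -0.42 to 0.07 for Sfpq and from -0.47 to 0.14 for Tmem252. It ran from -0.37 to 0.20 for Rcan1 and from -0.29 to 0.19 for Pamr1. In size the response was larger in SBH/y rats for Ubd, Tgif1, Bmp4 and Pamr1 and larger in SBN/y rats for the other 5. The median size of the 9 interactions was 0.208, against 0.079 over all probe sets, a comparison not independent of the choice of genes.

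**Figure D2:**
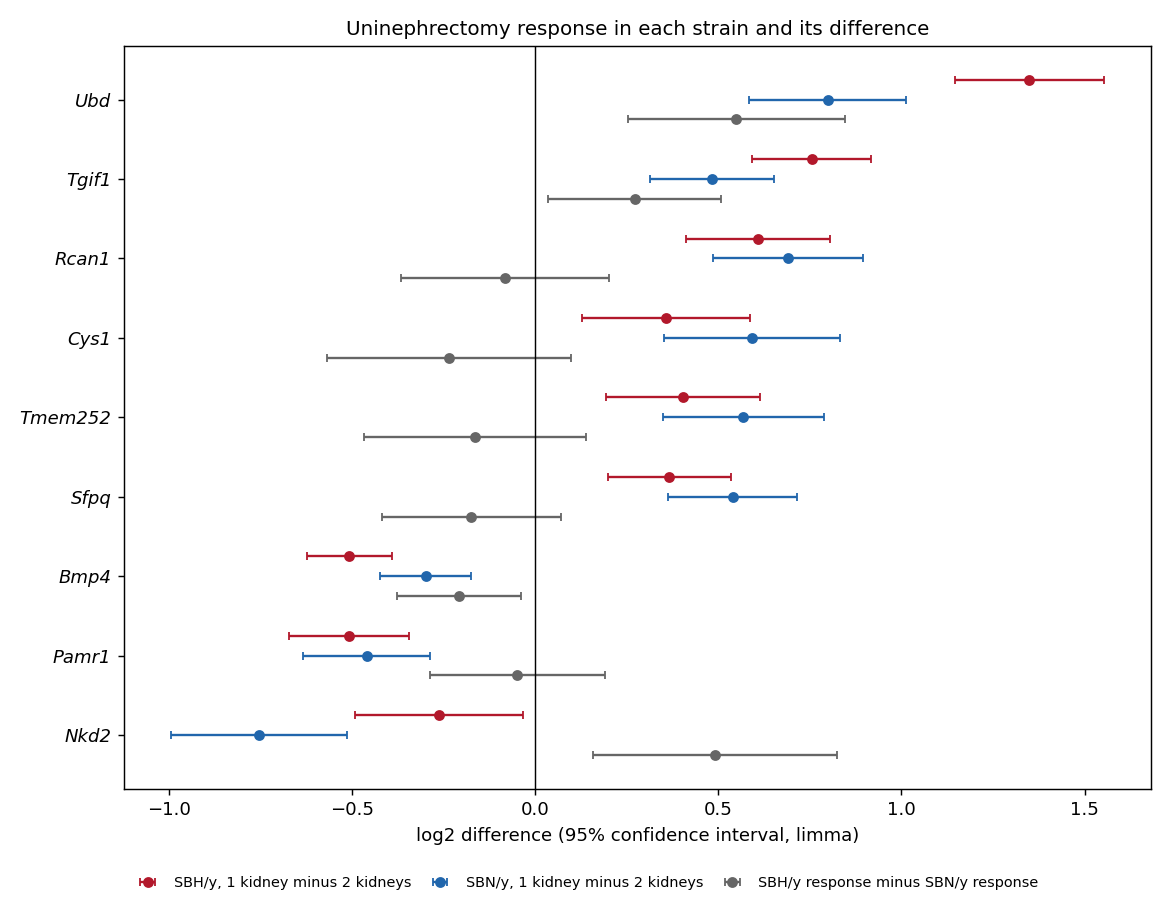
Log2 difference between 1 and 2 kidneys in SBH/y rats and in SBN/y rats, and the SBH/y response minus the SBN/y response, with 95% confidence intervals from limma. Points right of 0 are higher with 1 kidney, or, for the third of them, a more positive response in SBH/y rats. The interval of the third lies clear of 0 for Ubd (0.25 to 0.84), Tgif1, Bmp4 and Nkd2.

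Levels were next compared between the lines at the same number of kidneys. These comparisons share arrays with the responses that picked the genes. A gene picked for low sham-operated SBN/y arrays, for example, tends to be higher in sham-operated SBH/y rats too. The counts and p-values at 2 kidneys and at 1 are therefore not independent of the choice. Shares over all probe sets stand beside them as a description. Among sham-operated rats, 7 of 9 genes passed adjusted p 0.05 by limma, where 9.07% of all probe sets did, and 5 of the 9 had groups without overlap (7.57% of all). With 2 kidneys Cys1 was higher in SBH/y rats by 0.79 ± 0.12 (adjusted p = 2.0e-05), Ubd by 0.54 ± 0.10 (0.000649) and Sfpq by 0.43 ± 0.09 (0.000832). Tmem252 was higher by 0.39 ± 0.11 (0.0181) and Tgif1 by 0.36 ± 0.08 (0.00343). Nkd2 was lower in SBH/y rats by 0.73 ± 0.12 (5.7e-05) and Bmp4 by 0.21 ± 0.06 (0.0210). Rcan1 (0.16 ± 0.10, -0.05 to 0.36, adjusted p = 0.434) and Pamr1 (0.17 ± 0.08, -0.00 to 0.34, adjusted p = 0.267) did not pass. The call for Bmp4 was lost when only the groups compared were fitted (adjusted p = 0.0568).

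With 1 kidney, 5 of 9 genes passed, against 14.0% of all probe sets, and 3 of 9 had groups without overlap, against 7.62%. Ubd was higher in SBH/y rats by 1.09 ± 0.10 (adjusted p = 3.7e-09), Tgif1 by 0.64 ± 0.08 (8.5e-07), Cys1 by 0.56 ± 0.11 (0.000664) and Sfpq by 0.26 ± 0.08 (0.0300). Bmp4 was lower in SBH/y rats by 0.42 ± 0.06 (3.5e-06). Nkd2 (-0.24 ± 0.11, -0.47 to -0.01, adjusted p = 0.180) and Tmem252 (0.22 ± 0.10, 0.01 to 0.43, adjusted p = 0.175) did not pass, nor did Pamr1 (0.12 ± 0.08) and Rcan1 (0.08 ± 0.10). The difference between the lines was larger with 1 kidney than with 2 for Ubd, Tgif1 and Bmp4 and smaller for the other 6, by the amount of the interaction. Sfpq lost its call with a GAPDH covariate (adjusted p = 0.119).

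Sham-operated SBH/y rats were also set against SBN/y rats with 1 kidney, a comparison added after the group means were seen. It too shares arrays with the responses that picked the genes, so its counts and p-values are not independent of the choice. Here 2 of 9 genes passed adjusted p 0.05 by limma, where 8.09% of all probe sets did. Pamr1 was higher in the sham-operated SBH/y rats by 0.63 ± 0.08 (adjusted p = 2.0e-06), and Rcan1 differed by -0.53 ± 0.10 (0.000256). The interval of the difference was -0.21 to 0.25 for Nkd2, -0.03 to 0.20 for Bmp4, -0.28 to 0.04 for Tgif1 and -0.27 to 0.06 for Sfpq. It was -0.39 to 0.03 for Tmem252, -0.03 to 0.43 for Cys1 and -0.47 to -0.06 for Ubd. Intervals that hold 0 do not show equal levels. Among the 9, groups without overlap were found for Pamr1, against 5.70% of all probe sets.

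**Figure D3:**
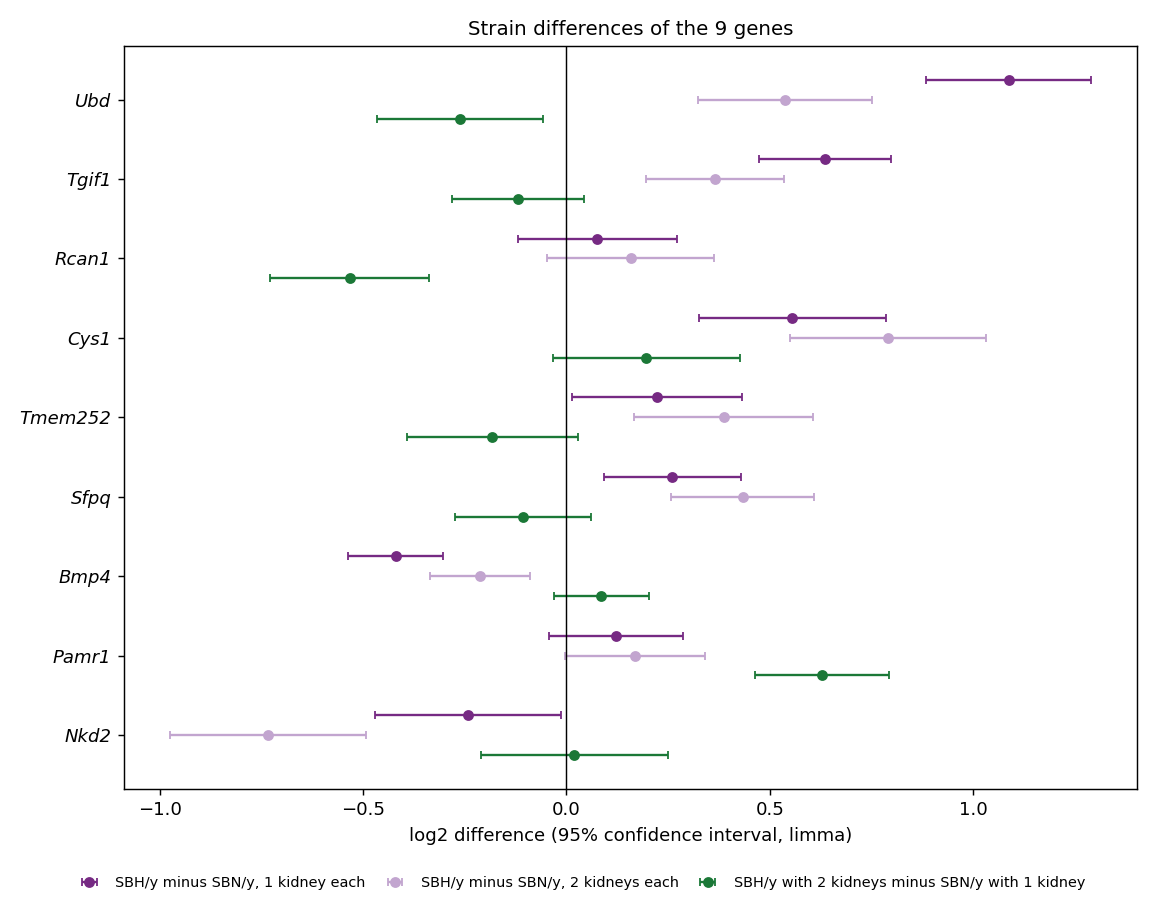
Log2 difference of SBH/y minus SBN/y with 1 kidney each, of SBH/y minus SBN/y with 2 kidneys each, and of sham-operated SBH/y minus uninephrectomized SBN/y rats, with 95% confidence intervals from limma. The last of these lies near 0 for Nkd2 and Bmp4, at -0.53 for Rcan1 and at 0.63 for Pamr1.

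The levels of Ubd and Tgif1 moved together across the 23 arrays. Over 9471 genes compared with each of the 9, the one most like Ubd was Tgif1, and the one most like Tgif1 was Ubd (r = 0.974, description only). Both genes were among those chosen, so differences between the groups enter that r. After group means were taken off, r was 0.697 (Spearman 0.601) and, without the 2 arrays farthest out for Tgif1, both of SBH/y rats with 1 kidney, 0.448. Within groups r was 0.938 in SBH/y rats with 1 kidney (n = 6) and 0.901 in SBN/y rats with 1 kidney (n = 6), and -0.245 in sham-operated SBH/y rats (n = 6) and 0.255 in sham-operated SBN/y rats (n = 5). Spearman's rho in the same order was 0.943, 0.829, -0.429 and 0.5. With 5 or 6 arrays a group, a difference between these correlations was not tested. The next most like genes were Gpnmb and Spp1 for both. For Tgif1 r was 0.951 with Gpnmb (0.712 within groups) and 0.947 with Spp1 (0.634). For Ubd r was 0.95 with Gpnmb (0.595 within groups) and 0.949 with Spp1 (0.517). Within groups Tgif1 was thus no closer to Ubd (0.697) than to Gpnmb, which is not among the 9. The genes most like Rcan1 were Manf (r = 0.916, 0.75 within groups), Pafah1b1 (0.852, 0.589) and Dnajb1 (0.842, 0.66). For Bmp4 they were Afm (0.905, 0.349), Nlrp6 (0.894, 0.414) and Tesc (0.894, 0.161). Nkd2 was most like Tgfbrap1 (0.816, 0.512), Prox1 (0.815, 0.197) and Rdh16 (0.802, 0.629), and Cys1 most like Nfya (0.904, 0.517), P4ha1 (0.89, 0.594) and Smad2 (0.879, 0.693). Sfpq was most like Ncoa5 (0.915, 0.803), Atp6v1b2 (0.902, 0.543) and Chordc1 (0.896, 0.689), and Pamr1 most like Clk2 (0.908, 0.517), Sema3g (0.904, 0.737) and Sema3e (0.866, 0.521). Tmem252 was most like Fga (0.885, 0.651), Plin2 (0.884, 0.651) and Dnaja1 (0.846, 0.541). Of the 36 pairs among the 9 genes, 3 had a within-group r beyond 0.5 in size, from -0.527 for Bmp4 with Ubd to 0.697 for Ubd with Tgif1.

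**Figure D4:**
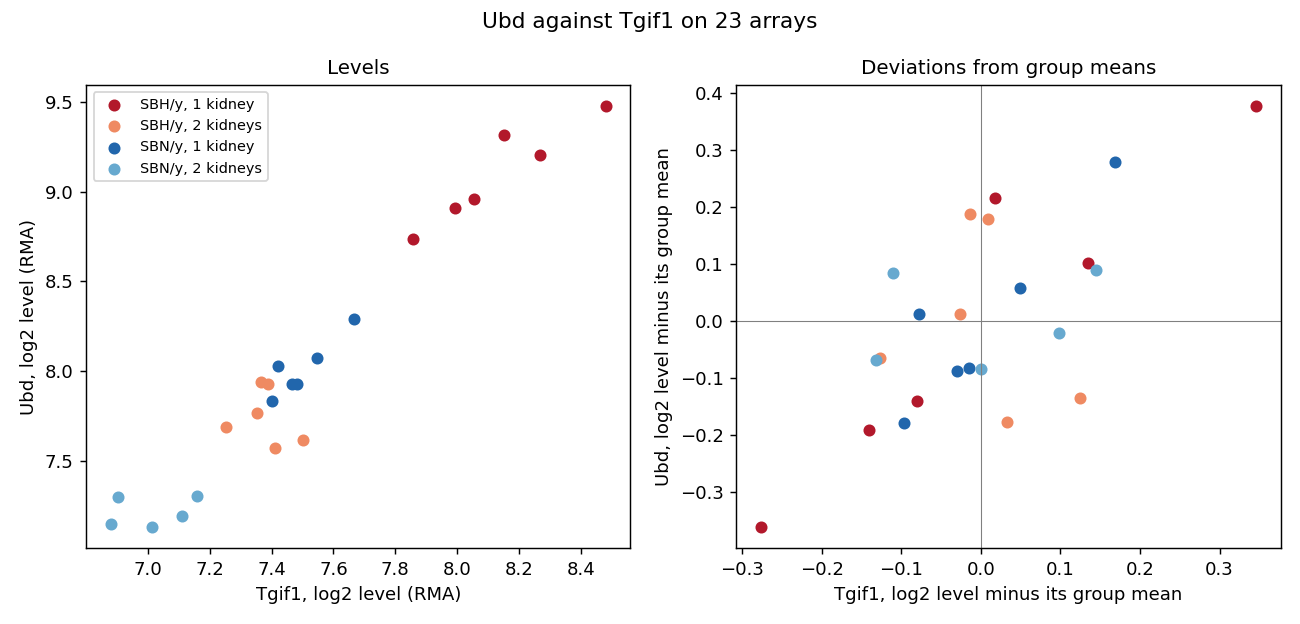
Log2 level of Ubd against Tgif1 on the 23 arrays (left) and the same after each group mean was taken off (right), 1 point per array. The arrays of SBH/y rats with 1 kidney lie highest on both axes, and their points run along the diagonal in both panels.

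The other genes of these pathways were counted from lists of named genes, with the 9 left out. Over all probe sets, 5.04% passed in SBH/y rats and 0.168% in SBN/y rats. At an unadjusted p under 0.05 by limma the shares were 15.6% and 7.62%. The lists hold 1 probe set per gene, the brightest. Fitted that way, 1202 of 14217 genes passed in SBH/y rats, 800 of them higher, and 48 in SBN/y rats. In the BMP and TGF-beta list, 36 of 40 genes were measured. In SBH/y rats 4 rose and 1 fell with 1 kidney, where 3.06% of all probe sets rose and 1.97% fell, and in SBN/y rats none passed (0.168% of all). At an unadjusted p under 0.05 by limma there were 9 of 36 in SBN/y rats, against 7.62% of all probe sets. Tgfb1, a TGF-beta ligand, rose by 0.55 ± 0.10 (adjusted p = 0.000459) and Inhbb, an activin subunit at a low level, by 0.52 ± 0.10 (0.0014) in SBH/y rats. The receptor gene Tgfbr1 rose by 0.28 ± 0.07 (0.0236) and Smad1 by 0.23 ± 0.06 (0.0289), and both calls were lost with a GAPDH covariate (0.0829 and 0.0724), when only the groups compared were fitted (0.0681 and 0.118), and without 4 (Tgfbr1) and 6 (Smad1) of the 23 arrays in turn. Id4, a target of BMP signalling, fell by 0.42 ± 0.07 (0.000535) and had -0.30 ± 0.08 in SBN/y rats (0.141, and 0.0473 with array weights). The inhibitory Smad7 had -0.23 ± 0.075 in SBN/y rats (0.316) and the BMP antagonist Grem1 -0.47 ± 0.154 (0.332). The list's median difference was 0.035 in SBH/y rats and 0.003 in SBN/y rats, against 0.004 and 0.005 over all genes.

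In the Wnt list, 40 of 45 genes were measured, and 1 rose and none fell in SBH/y rats (3.06% and 1.97% of all probe sets). None passed in SBN/y rats, with 4 at an unadjusted p under 0.05 (7.62% of all probe sets). The gene that rose was Tcf7, which encodes a Wnt-responsive transcription factor (0.36 ± 0.08, adjusted p = 0.00971), and its call was lost with a GAPDH covariate (0.0642) and without both extreme arrays of the second principal component (0.0697), a setting added after the data were seen. Dkk3, a Dickkopf relative, had 0.27 ± 0.083 in SBH/y rats (0.0613, but passing under several alternatives, such as array weights at 0.0194), and Sfrp1, a secreted Wnt antagonist, 0.21 ± 0.077 (0.141). The Wnt receptor genes Fzd8 and Fzd6 had in SBN/y rats -0.25 ± 0.083 (0.356) and -0.155 ± 0.059 (0.47), and the ligand gene Wnt5b -0.22 ± 0.077 (0.41). In the calcineurin list, 22 of 25 were measured and 1 passed in SBH/y rats, against 5.04% of all probe sets. Fkbp1a, the FK506-binding protein, rose there by 0.20 ± 0.06 (0.0474). The call was lost without 15 of the 23 arrays in turn and with a GAPDH covariate (0.0777). Another probe set of Fkbp1a passed with 0.16 (0.0232), and a further one had 0.10 (0.493). None passed in SBN/y rats, with 2 at an unadjusted p under 0.05 (7.62% of all probe sets). Rcan2, a relative of Rcan1, had -0.17 ± 0.06 in SBH/y rats (0.14), and Ppp3cb, a catalytic subunit of calcineurin, -0.18 ± 0.066 (0.147). Other probe sets of Ppp3cb went the other way in SBH/y rats, with 0.13 and 0.04, and did not pass. Nfatc1, an NFAT factor, had -0.25 ± 0.075 in SBN/y rats (0.254), the kinase gene Dyrk1a 0.16 ± 0.073 (0.618) and Rcan3, another relative of Rcan1, -0.12 ± 0.065 (0.743).

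In the list of ubiquitin-like modifiers, 18 of 25 were measured, and 3 passed in SBH/y rats, against 5.04% of all probe sets. Ube2l6 and Isg15, the conjugating enzyme and the modifier of interferon-induced ISGylation, rose in SBH/y rats by 0.32 ± 0.07 (adjusted p = 0.00415) and 0.35 ± 0.09 (0.0256), and Uba6, the enzyme that activates FAT10, fell by 0.40 ± 0.06 (0.000203). The Isg15 call was lost with a GAPDH covariate (adjusted p = 0.118) and when only the groups compared were fitted (0.08485). It was also lost without both extreme arrays of the second principal component (0.0574) and without 5 of the 23 arrays in turn. Other probe sets of Uba6 had -0.11, 0.03 and 0.14 and did not pass. None of the 18 passed in SBN/y rats, with 4 at an unadjusted p under 0.05 (7.62% of all probe sets). There Uba6 had -0.18 ± 0.066 (0.436), Atg12, a ubiquitin-like protein of autophagy, 0.15 ± 0.052 (0.378), and Sqstm1, an autophagy receptor that binds ubiquitin, 0.12 ± 0.044 (0.407). Other probe sets had, in SBN/y rats, -0.10, 0.13 and -0.01 for Uba6 and -0.005 and 0.01 for Atg12. For Sqstm1 they had 0.11, 0.12 and -0.02, and none of these passed.

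In the cilium list, 25 of 34 were measured and none passed in either line. At an unadjusted p under 0.05 there were 3 in SBH/y rats (15.6% of all probe sets) and 2 in SBN/y rats (7.62%). In SBH/y rats Glis2, a transcription factor mutated in a form of nephronophthisis, had -0.15 ± 0.047 (adjusted p = 0.075), Bbs2, a subunit of the BBSome, -0.23 ± 0.088 (0.163), and Kif3a, a kinesin of ciliary transport, 0.15 ± 0.065 (0.236). In SBN/y rats Glis2 had -0.13 ± 0.05 (0.485), Dzip1l, a protein of the ciliary base, -0.18 ± 0.06 (0.344), and Bbs1, another BBSome subunit, 0.23 ± 0.112 (0.668). Another probe set of Bbs1 had -0.14 in SBN/y rats (0.725).

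In the paraspeckle and splicing list, 27 of 31 were measured. Of these, 1 passed in SBH/y rats and 2 in SBN/y rats, against 5.04% and 0.168% of all probe sets. Srsf5, a splicing factor, fell in SBH/y rats by 0.30 ± 0.07 (adjusted p = 0.00753) and in SBN/y rats by 0.34 ± 0.07 (0.0430), and Rbm14, a paraspeckle protein, rose in SBN/y rats by 0.35 ± 0.07 (0.0413). Both SBN/y calls were lost with a GAPDH covariate, at adjusted p = 0.0904 for Srsf5 and 0.183 for Rbm14, and in 14 (Srsf5) and 11 (Rbm14) of the 23 fits that left out 1 array. In SBH/y rats Rbm14 had 0.21 ± 0.07 (0.0844) and Clk1, a kinase of splicing factors, 0.19 ± 0.069 (0.115), and in SBN/y rats the splicing factor gene Tra2b had 0.21 ± 0.066 (0.304). In the CUB list, 12 of 17 were measured, and 4 passed in SBH/y rats, against 5.04% of all probe sets. C1r rose by 0.34, C1s by 0.35 and Nrp2 by 0.30, and Neto2 fell by 0.39. None passed in SBN/y rats, with 1 at an unadjusted p under 0.05 (7.62% of all probe sets). The C1s and Nrp2 calls were lost with a GAPDH covariate (adjusted p = 0.0524 and 0.146), and that of Nrp2 also with array weights (0.0669) and without 7 of the 23 arrays in turn. The C1s call was also lost without 3 of the 23 arrays in turn. Without both extreme arrays of the second principal component, C1s (0.124) and Nrp2 (0.175) missed the threshold. Bmp1, a procollagen protease, had 0.15 ± 0.063 in SBN/y rats (0.545), Cubn, an endocytic receptor of the proximal tubule, 0.15 ± 0.077 (0.678), and Nrp2 0.17 ± 0.089 (0.725). No gene of the 7 lists passed for the interaction by limma, with 14 of 180 at an unadjusted p under 0.05, near the 8.06% of all probe sets.

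The kidney identity of the samples was checked first. The proximal tubule gene Slc34a1 ran between 12.19 and 12.30 in the group means, and Umod, of the thick ascending limb, between 12.41 and 12.51. Markers of other cells moved with kidney number in SBH/y rats, where 3.06% of all probe sets rose and 1.97% fell. With 1 kidney 3 of 5 macrophage genes rose in SBH/y rats (Cd68 by 0.67, Csf1r by 0.45 and Aif1 by 0.49), as did 3 of 4 T cell genes, and none of either passed in SBN/y rats. The mean level of the macrophage list ran between 5.41 and 5.75 in SBH/y rats with 1 kidney, 5.14 and 5.30 in sham-operated SBH/y rats, 5.08 and 5.47 in SBN/y rats with 1 kidney, and 4.90 and 5.19 in sham-operated SBN/y rats. Of the 5 macrophage genes, Cd163 lay at 2.63 to 2.80 in the group means, among the dimmest values on the array. Adgre1 was brighter, at 5.5 to 5.91, and did not pass either. By limma it had 0.10 in SBH/y rats (adjusted p = 0.767) and 0.22 in SBN/y rats (0.733). The T cell list ran between 4.12 and 4.47, 3.88 and 4.12, 4.13 and 4.27, and 4.13 and 4.34 in the same groups. In SBH/y rats 1 of 3 B and plasma cell genes rose, Jchain by 1.65. Also higher were 2 of 4 pericyte genes (Pdgfrb by 0.34 and Des by 0.40) and 2 of 2 proliferation genes (Mki67 by 0.48 and Top2a by 0.27). In the same rats 2 of 3 endothelial, 1 of 2 podocyte, 1 of 2 intercalated cell and 1 of 5 adipocyte genes fell, and the other 6 marker lists had none past the threshold. In SBN/y rats none of 46 marker genes passed by limma, with 5 at an unadjusted p under 0.05 (7.62% of all probe sets). Marker genes were not tested between the lines. With 1 and 2 kidneys, Mrap of the adrenal list lay at 4.51 and 4.88 in SBH/y and 6.74 and 6.91 in SBN/y rats. Ucp1 of the adipocyte list lay at 4.41 and 4.29 against 5.7 and 6.06. Cyp11a1 and Cyp11b1, also of the adrenal list, lay at 3.91 to 4.0 and 2.51 to 2.57, and the other adipocyte genes differed less than Ucp1. The part of these genes in the levels of the 9 genes was not tested.

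The ratio of the 3' to the 5' GAPDH probe sets, a sign of RNA quality, was 0.53 ± 0.11 and 0.46 ± 0.06 log2 in SBH/y rats with 1 and 2 kidneys and 0.45 ± 0.04 and 0.35 ± 0.03 in SBN/y rats with 1 and 2. Within groups its correlation with the 9 genes ran from -0.389 for Tmem252 to 0.197 for Sfpq. With it as a covariate the responses kept their direction for the 9 genes in both lines, and its part in the strain levels was not otherwise tested. Arrays of a group correlated at 0.990 to 0.997, and array medians lay between 4.65 and 4.69.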

How the data were processed

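The authors deposited log2 values per probe set and array. The submitters' processing notes name GCOS and RMA and no version. RMA quantile-normalizes arrays, which hides any change in total mRNA. Batches were not examined, since the sources used here give no scan date. The labels number the samples and do not say that each is a separate animal, so n counts samples and the p-values reflect the spread between arrays, which may be technical. After 57 controls of 31099 probe sets were dropped, 31042 were tested. The platform annotation gave 20826 of them 1 symbol, 436 several and 9780 none. Only the first kind was named, 20758 were found in RefSeq by gene ID, and the brightest probe set stood for its gene. Other probe sets of several named list genes, such as Dkk3, Nrp2 and Kif3a, differed less or in the other direction.

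One limma model (limma 3.58.1, R 4.3.3) with 4 group means gave every contrast. Tests were two-sided, adjusted by Benjamini-Hochberg over all probe sets, with a threshold of 0.05, and ± beside a difference is the SE. The code was tested on simulated data. The 9 genes, lists, motifs and tests were chosen with earlier results of these data known. All 9 genes are named, and from each list up to 3 genes with the smallest p in each line, plus others that passed. The 3 genes most like each of the 9 over all arrays, the other genes called in both lines and the nearest outside are named too. Alternatives were a filter on dim probe sets, repeated quantile normalization, 1 probe set per gene, a trended robust fit, array weights, a GAPDH covariate, only the groups compared, a replicate block and leaving out arrays.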

Additional observations from a re-analysis of the deposited data

Results flagged for a closer look

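In 5 of 36 gene and group combinations 1 array stood apart from the rest of its group, against about 1 in 20 by chance. In SBH/y rats with 1 kidney, replicate 3 was high for Tmem252 (10.64) and for Nkd2 (6.003). Without that array the Tmem252 response in SBH/y rats was 0.289 in place of 0.404. Its difference between the lines with 1 kidney was then 0.107 in place of 0.222. The Nkd2 response in SBH/y rats was then -0.316 in place of -0.262. In sham-operated SBH/y rats, replicate 3 was low for Pamr1 (7.26) and for Sfpq (6.49). In sham-operated SBN/y rats, replicate 4 was low for Cys1 (7.08).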

How the results depend on the processing

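Probe sets called in SBN/y rats numbered 52, and 137 with array weights. Those called for the interaction numbered 79, and 124 with a trended robust fit, 124 with a GAPDH covariate and 137 with array weights, where 1 of the 9 genes, Ubd, was called (0.60, adjusted p = 0.0341). With 1 probe set per gene, which tests fewer, strain calls numbered 1748 with 2 kidneys and 2810 with 1, against 2817 and 4342. Leaving out arrays in turn gave 1057 to 1765 calls in SBH/y rats, 24 to 78 in SBN/y rats, 52 to 157 for the interaction, 2412 to 3002 for strain with 2 kidneys and 3713 to 4516 with 1. Of the 9 genes, 0 to 1 were then called for the interaction, 5 to 7 for strain with 2 kidneys and 4 to 5 with 1. Calls in SBN/y rats numbered 26 and 24 without replicates 1 and 3 with 1 kidney, and 32, 34, 24 and 25 without sham-operated replicates 1, 2, 3 and 4. The interaction had 157 and 133 calls without SBH/y replicates 3 and 5 with 1 kidney, and 131 and 52 without SBN/y replicates 4 and 6 with 1 kidney. Nkd2 between sham-operated SBH/y and uninephrectomized SBN/y rats was 0.02, -0.0311 with array weights, and -0.0746 to 0.0878 without arrays in turn. Rcan1 between lines with 1 kidney ran from -0.0015 to 0.1297 without arrays in turn.

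Between lines with 2 kidneys, Bmp4 lost its call without sham-operated SBH/y replicate 4 or 5 or SBN/y replicate 1 or 3 (adjusted p up to 0.0815), and Tmem252 without SBH/y replicate 6 or SBN/y replicate 3 or 4 (up to 0.0648). With 1 kidney, Sfpq lost its call without SBH/y replicate 1, 2 or 6 or SBN/y replicate 4 or 6 (up to 0.0945), and Nkd2 gained one without SBN/y replicate 4 (0.0264). In the responses that chose the genes, calls in SBN/y rats were lost for Bmp4 without replicate 1 or 3 with 1 kidney or sham-operated replicate 1, 2, 3 or 5 (adjusted p up to 0.122), for Cys1 without replicate 1, 2 or 3 with 1 kidney or any sham-operated array (up to 0.112), for Pamr1 without sham-operated replicate 1 or 3 (up to 0.0559) and for Tmem252 without sham-operated replicate 3 or 4 (up to 0.0767). Cys1 gained a call in SBH/y rats without SBH/y replicate 1 with 1 kidney, sham-operated SBH/y replicate 5 or SBN/y replicate 3 with 1 kidney (down to 0.0211). Of 828 values of the 9 genes in the tested comparisons, 810 kept direction and side of the threshold without single arrays, as did 310 of 315 under other settings. Many of the 828 left out an array outside the groups compared, where the difference cannot move, so this share overstates stability. A replicate block gave 1515, 48, 67, 2718 and 4302 calls in SBH/y rats, in SBN/y rats, for the interaction and for strain with 2 and 1 kidneys, and called 0, 7 and 5 of the 9 genes in the last 3 of these. With the block Bmp4 (0.0646) and Tmem252 (0.0517) missed the threshold in SBN/y rats. Same-numbered arrays correlated at -0.171 to 0.259, so the numbers were not taken as pairs. The number of arrays limits small differences, and the cause of these shifts was not tested.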
